A study of Homo sapiens with 3 samples.

Results

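The MAP kinase phosphatases described here are the 10 genes DUSP1, DUSP2, DUSP4, DUSP5, DUSP6, DUSP7, DUSP8, DUSP9, DUSP10 and DUSP16. These genes were chosen by symbol, with earlier results of these data known, out of 18674 genes with a value in every library. They had 14 of the 28848 RefSeq rows used. Messenger RNA was sequenced in A2780, a cell line whose tumour of origin was an undifferentiated ovarian cancer, in 3 libraries. The groups compared were A2780 cells carrying exogenous miR-181a (2 libraries, pool 1 and pool 2) and A2780 cells carrying the pBABE vector, an empty retroviral vector (1 library). The labels speak of polyclonal pools in the extraction protocol but of clones in the sample description, and whether the pools were separate cultures beyond that was not stated, so p-values measure only how far these libraries differ, and that spread may be technical. The study asked which genes miR-181a acts on, and DUSP5 and DUSP6 are reported targets of it.

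MAP kinases (ERK, JNK and p38) are switched on by phosphorylation of a threonine and a tyrosine in their activation loop. The MAP kinase phosphatases remove both phosphates and so switch the kinases off. Several of them are transcribed in response to the pathway they restrain, which makes them both brakes and readouts of MAP kinase signalling. By location and preference they fall into nuclear inducible enzymes (DUSP1, DUSP2, DUSP4 and DUSP5), cytoplasmic enzymes selective for ERK (DUSP6, DUSP7 and DUSP9) and enzymes that act on JNK and p38 (DUSP8, DUSP10 and DUSP16). A microRNA finds its targets mainly through its seed, bases 2 to 8, which pairs with sites in the 3′ UTR of a messenger RNA and lowers its stability or translation.

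The mature miR-181a-5p sequence (RefSeq, GRCh38.p14, chr1:198859108-198859130 on the minus strand, with a second copy on chromosome 9) is shown with its seed in capitals, because every site below is read against it. The human miRNAs that share this seed were miR-181a-5p, miR-181b-5p, miR-181c-5p, miR-181d-5p and miR-4262.
hsa-miR-181a-5p: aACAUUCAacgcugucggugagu

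Matches to the seed were sought on the sense strand of the longest annotated 3′ UTR of each gene (GENCODE v44lift37 on GRCh37, the assembly also called hg19). The match to bases 2 to 8 is TGAATGT, the 8-mer TGAATGTA adds an A opposite base 1, and the shorter matches GAATGTA and GAATGT pair with bases 2 to 7. The longer matches contain the shorter ones, and each site was counted once, under its longest class. DUSP5, DUSP6 and DUSP7 held 1 match each to bases 2 to 8, which is 3 of the 10 members, beside 20.5% of 16233 genes with an annotated 3′ UTR. The sites of every class among the members are shown 5′ to 3′ over the 23 bases that a paired miR-181a-5p would span, with the matched bases in capitals.
DUSP5 chr10:112271198-112271220: tttctaagacccgtgTGAATGTg
DUSP6 chr12:89741833-89741855: aactattttggctatTGAATGTg
DUSP6 chr12:89741878-89741900: ctggaatttattataaGAATGTA
DUSP6 chr12:89743000-89743022: acacccctccttgctgGAATGTg
DUSP7 chr3:52087183-52087205: cacgagggctcaggaTGAATGTA
DUSP10 chr1:221874872-221874894: ttacatatgtatatcaGAATGTA

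DUSP5 lies on the plus strand and the other genes printed on the minus strand, and all 6 sites lie in 3′ UTR exons. DUSP7 had the only 8-mer among the members. DUSP6 had 3 sites, and its match to bases 2 to 8 began 1191 nt after the stop codon, close to a shorter match that began at 1147 nt. The 2 annotated shorter 3′ UTRs of DUSP6 kept only the GAATGT match that began 25 nt after the stop codon, and the shorter one of DUSP7 held no match, so the match to bases 2 to 8 was present in every annotated 3′ UTR only for DUSP5. Among genes whose 3′ UTR length was within 10% of that of the member, 13.5% held such a match for DUSP5, 24.9% for DUSP6 and 25.5% for DUSP7. For the members without such a match this share ran from 7.66% for DUSP1 to 43.0% for DUSP4, with 26.7% for DUSP8 and 37.3% for DUSP16. DUSP1, DUSP2, DUSP4, DUSP8, DUSP9 and DUSP16 held no match of any class in this window.

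**Figure D1:**
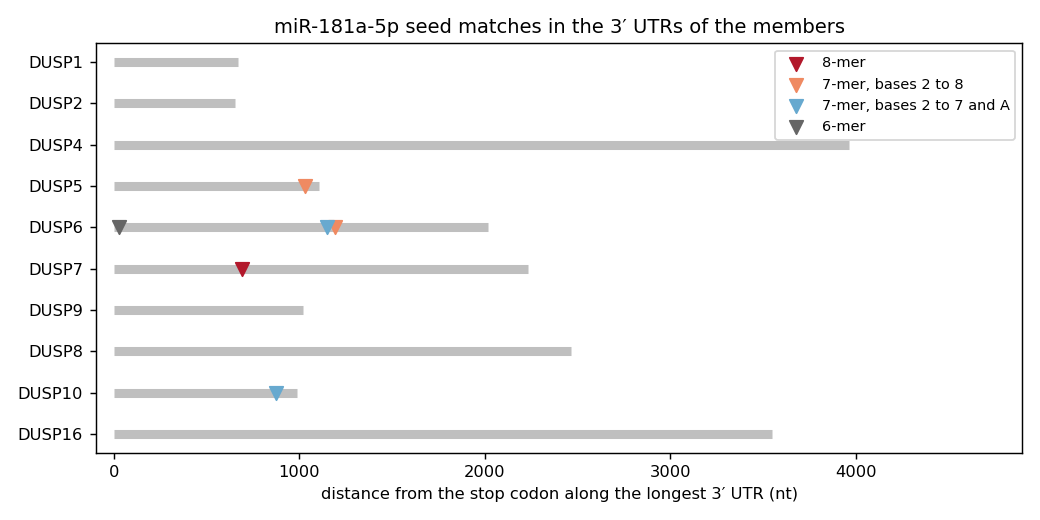
Grey bars are the longest annotated 3′ UTRs of the 10 members, drawn from the stop codon in nt, and triangles are seed matches of miR-181a-5p coloured by class. DUSP5, DUSP6 and DUSP7 carry a match to bases 2 to 8, and DUSP1 and DUSP9 carry none.

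The deposited value is a coverage per RefSeq transcript, the median read density over 50 bp windows, so levels can be compared between genes on this per-length scale. A gene listed at 0 can still have reads, since a median is 0 when most of the windows are uncovered, and with no read counts in the table the sequencing depth is unknown. Coverage summed to 907092 in pool 1, 719263 in pool 2 and 798228 in the vector library. Of the 8822 transcripts at 0 in both pools, 62.9% were above 0 in the vector library, where 25% of the 8822 reached 5.92 or more. Of 10 carcinoma markers, 8 were at 0 in both pools. Of these, CDH1, WT1 and KRT7 were at 0 in the vector library too, while ESR1, EPCAM, KRT19, PAX8 and MUC16 stood there at 104, 66.3, 17.4, 4.71 and 0.649. The keratin genes KRT8 and KRT18 were present in all 3 libraries but lower in both pools. KRT8 had 13.4 and 10.5 in the pools, against 27.0 in the vector library, and KRT18 had 2.38 and 4.91, against 13.9. The carcinoma list summed to 15.8 in pool 1, 15.4 in pool 2 and 234 in the vector library. Of 8 markers of immune, fibroblast or endothelial cells, PTPRC, VWF and CDH5 were at 0 in both pools, against 5.79, 36.6 and 4.72 in the vector library, and CD74 and PECAM1 had at most 0.4 in a pool, against 39.2 and 11.9. The fibroblast genes differed in direction, with COL1A1 at 0 and 0.706 in the pools, against 7.41 in the vector library, DCN at 480 and 420, against 144, and LUM at 232 and 245, against 120.3. This list summed to 712 in pool 1, 666 in pool 2 and 370 in the vector library. These values stand beside every member given as lower below, and their part in those results was not tested.

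DUSP6, which encodes the cytoplasmic phosphatase selective for ERK, was the most abundant member in every library. Its coverage was 206 in pool 1, 119 in pool 2 and 118 in the vector library. It ranked above 97.7%, 96.6% and 95.8% of genes in these libraries. DUSP6 made up 81.1% of the summed coverage of the 10 genes in pool 1, 75.6% in pool 2 and 62.0% in the vector library. The next member stood 11.6-fold, 7.30-fold and 5.73-fold below it, and was DUSP16 in the pools and DUSP1 in the vector library.

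**Figure D2:**
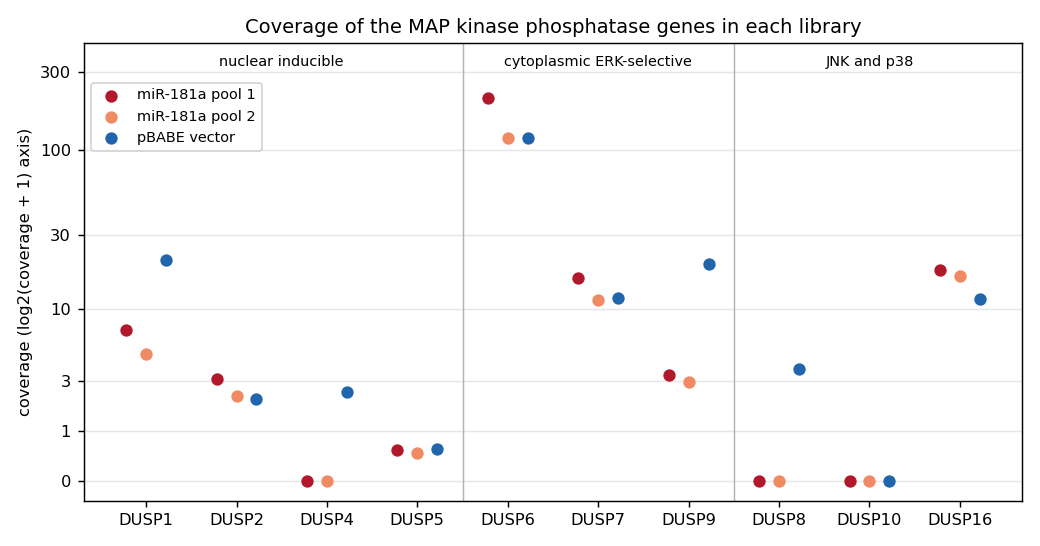
Coverage of each member in the 3 libraries on a log2(coverage + 1) axis, 1 point per library, grouped by role. DUSP6 stands above all other members in every library, and DUSP10 is at 0 throughout.

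Below DUSP6, the order in the pools was DUSP16, DUSP7, DUSP1, DUSP9, DUSP2 and DUSP5, while DUSP4, DUSP8 and DUSP10 were at 0. The values of DUSP16 and DUSP7 were neighbours in that order and did not overlap, at 17.8 and 16.3 for DUSP16 and 15.9 and 11.5 for DUSP7. In the vector library the order was DUSP6, DUSP1, DUSP9, DUSP7, DUSP16, DUSP8, DUSP4, DUSP2 and DUSP5. DUSP7 and DUSP16 differed there by less than the gap between the pools for either gene. Members with a coverage above 1 numbered 6 in each pool and 8 in the vector library.

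The comparison of the miR-181a pools with the vector library asked which members move with miR-181a. Folds were taken on the log2(coverage + 1) scale and understate changes at low coverage, and genes were tested if their mean over the 3 libraries was above 2.44, the lowest 25% of genes not at 0 throughout. DUSP1, DUSP2, DUSP6, DUSP7, DUSP9 and DUSP16 passed this filter, and DUSP4, DUSP5, DUSP8 and DUSP10 did not. By limma with the Benjamini-Hochberg adjustment at 0.05, fitted over all 12552 tested genes, none of the 6 rose and 1 fell, DUSP9. Over all tested genes 1.0% rose and 21.7% fell. Of the genes that fell, 82.6% had both pools below the filter value and so were tested only through their vector value, and of 2351 such genes 2250 fell. The pool values of the 6 tested members, DUSP9 included, were not both below it. When both pools had to differ from the vector library by 1 log2 unit or more with the same sign (the size rule), DUSP1 and DUSP9 were lower and no member was higher, beside 27.3% of tested genes lower and 2.53% higher. Counts of 1 or 2 among 6 are near these shares over all tested genes. The 21.7% is not a like comparison, since it is mostly genes with both pools below the filter value, where no tested member lies. Among tested genes outside that class the share that fell is lower. The members' median log2 fold was 0.22, beside 0.070 over all tested genes and 0.22 over those above 0 in both pools, as all 6 are. The members' median was -0.0098 with pool 2 alone and 0.41 with pool 1 alone. At an unadjusted limma p under 0.05 none of the 6 rose and DUSP1 and DUSP9 fell, beside 5.39% and 27.8% of all tested genes.

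The direction of calls in this table differed between scalings. Without scaling 126 genes rose and 2725 fell, with the quantile normalization that the labels name 4598 rose and 3012 fell, and with each pool shifted by its median ratio to the vector over genes with a pool mean above 50 the counts were 710 and 5784. The last of these fits also differs in form, since limma estimated 1 common variance at each level with 12552 degrees of freedom, against 2.22 without scaling and 1.84 with quantile normalization, so its counts do not show scaling alone. The median log2 fold of tested genes was 0.070, 0.47 and -0.40 in these settings. Under quantile normalization DUSP2, DUSP7 and DUSP16 rose and DUSP1 and DUSP9 fell, beside 36.6% and 24.0% of tested genes. Under the shift none rose and DUSP1 and DUSP9 fell, beside 5.66% and 46.1%. DUSP10, at 0 in all 3 libraries, had a log2 fold of 0.28 under quantile normalization and -0.47 under the shift. In these settings a fold at low coverage can therefore arise with no difference in coverage. With no filter 9 members were tested, none rose and DUSP4, DUSP8 and DUSP9 fell, beside 1.66% and 33.6% of 16737 genes, and DUSP4 and DUSP8, at 0 in both pools, owe their calls to the vector value.

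**Figure D3:**
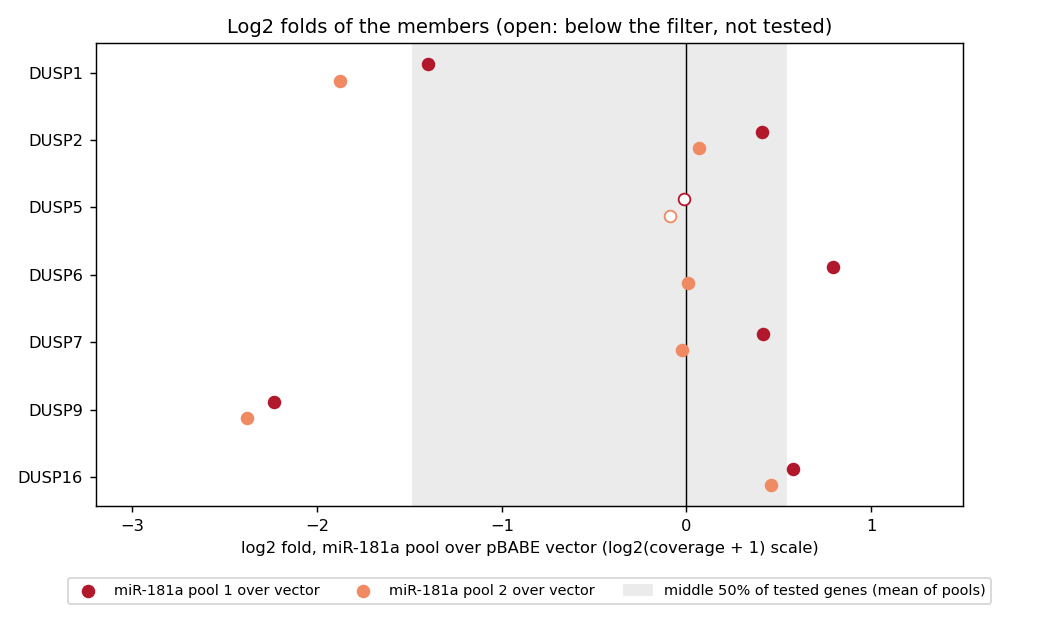
Log2 fold of each pool over the pBABE vector library for the 7 members above 0 in the pools, without scaling, with filled points for tested genes and open points for DUSP5, which was below the filter. The grey band runs from the lower to the upper quartile of the log2 folds of tested genes, each quartile averaged over the pools. DUSP1 and DUSP9 lie below -1 in both pools, and the mean folds of DUSP2, DUSP6 and DUSP7 turn negative when the pools are shifted by the median ratio of genes above 50.

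Without scaling, DUSP6 was not lower in either pool. Its coverage in pool 2, 119, was within 1% of the vector value of 118, and pool 1 stood apart at 206. The log2 fold was 0.80 in pool 1 and 0.0069 in pool 2, with a mean of 0.40 (SE 0.49, 95% interval -1.52 to 2.32, limma adjusted p = 0.603). The interval includes both a fall and a rise of more than 1 log2 unit, and after the shift the fold was -0.069 (limma adjusted p = 0.780). DUSP6 differed between the pools by 0.79 log2 units, pool 1 minus pool 2, beside a median of 0.32 over 2124 genes with a pool mean above 50, of which 3.20% had a larger difference. Both DUSP6 transcripts gave the same picture, with the second at 193 in pool 1, 117 in pool 2 and 109.6 in the vector library.

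DUSP5, the nuclear phosphatase that binds and anchors ERK and the other reported target, was scarcely covered in any library. Its coverage was 0.546 in pool 1, 0.469 in pool 2 and 0.563 in the vector library. Both pools were below the vector value, by less than the gap between the pools for pool 1, and the gene was below the filter and was not tested. Its ratio of coverage to the vector library was 0.970 in pool 1 and 0.834 in pool 2. The mean log2 fold was -0.052 on the log2(coverage + 1) scale, which understates the change in these ratios at such low coverage. With no filter it was tested and not called (limma adjusted p = 0.513), and with no read counts the size of change that could be seen at this coverage is not known.

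DUSP7, a cytoplasmic ERK phosphatase and the member with the 8-mer, had a coverage of 15.9 in pool 1, 11.5 in pool 2 and 11.7 in the vector library. The vector value lay between the pools. The log2 fold was 0.19 (SE 0.37, 95% interval -1.28 to 1.66, limma adjusted p = 0.740), and -0.28 after the shift (limma adjusted p = 0.320). Of the 3 members with a match to bases 2 to 8, neither DUSP6 nor DUSP7 passed the test and DUSP5 was not tested. Across all tested genes with a 3′ UTR, the median log2 fold was 0.059 in 2424 genes with such a match and 0.082 in 8576 without, and among those above 0 in both pools it was 0.19 in 2158 genes with it and 0.24 in 7318 without, which is given as a description with no test.

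DUSP9, a cytoplasmic phosphatase selective for ERK encoded on the X chromosome (chrX:152907946-152916781 on GRCh37), was lower in the pools. Its coverage was 3.40 in pool 1 and 2.97 in pool 2, against 19.7 in the vector library. The pools lay close together and well below the vector value, with ratios of 0.173 and 0.151. The log2 fold was -2.31 (SE 0.16, 95% interval -2.95 to -1.66) and limma gave an adjusted p of 0.0183. Of the settings tried, 1 left DUSP9 below the filter, and it passed in 10 of 10 others with a test, with adjusted p from 1.2e-21, under the shift, to 0.0341. The excess of the vector value over the pool mean was 16.5, and 10.2% of the transcripts at 0 in both pools had a vector value at least that high. Of 1850 transcripts with a pool mean within 1.5-fold of that of DUSP9, 10.2% had a vector value at least as high as 19.7, and their median vector value was 3.73. Fewer cells with the transcript and less transcript per cell cannot be told apart in these bulk libraries.

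DUSP1, the nuclear phosphatase induced early by growth factors and stress, which prefers p38 and JNK (chr5:172195099-172198198), was also lower in both pools but did not pass the test. Its coverage was 7.20 in pool 1 and 4.90 in pool 2, against 20.7 in the vector library. The pools did not overlap the vector value, and the ratios were 0.348 and 0.237. The log2 fold was -1.64 (SE 0.37, 95% interval -3.08 to -0.20, limma adjusted p = 0.126). It passed in 3 of 11 settings with a test, namely under quantile normalization (limma adjusted p = 0.0315), the shift (9.1e-17) and a filter at the median (2.4e-14). The last 2 of these used a common variance, with 12552 and 8368 degrees of freedom. Of the transcripts at 0 in both pools, 11.2% had a vector value at least as high as the DUSP1 excess of 14.6, and of 3099 transcripts with a similar pool mean 10.0% had a vector value at least as high as that of DUSP1.

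**Figure D4:**
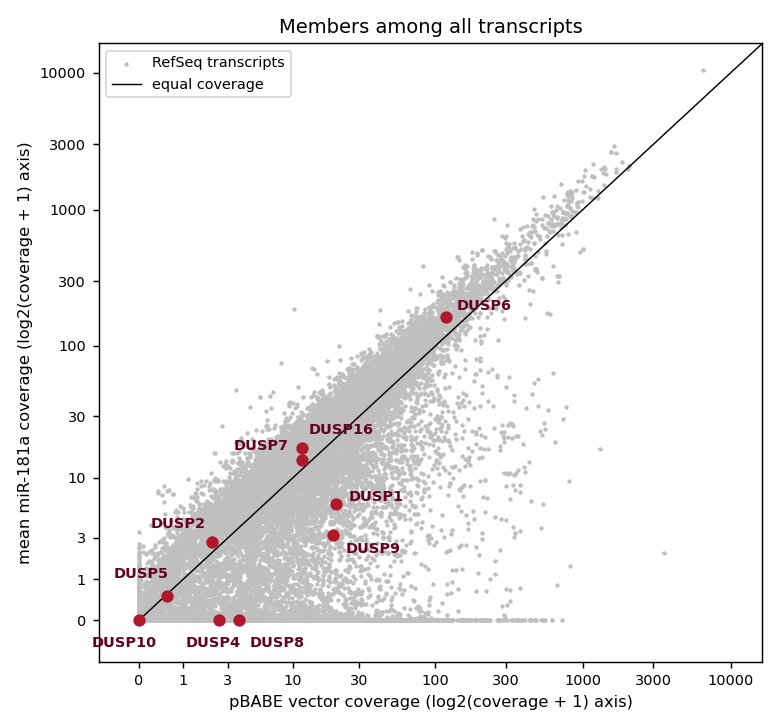
Mean coverage in the miR-181a pools against coverage in the pBABE vector library for 28848 RefSeq transcripts, both on a log2(coverage + 1) axis, with the members in red. DUSP1 and DUSP9 lie below the line of equal coverage among many other transcripts, and DUSP4 and DUSP8 lie among those at 0 in the pools.

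DUSP2, a nuclear phosphatase first known from activated lymphocytes, was low in every library. Its coverage was 3.15 in pool 1, 2.27 in pool 2 and 2.12 in the vector library. Both pools were above the vector value, pool 2 by less than the gap between the pools. The log2 fold was 0.24 (SE 0.20, 95% interval -0.55 to 1.03, limma adjusted p = 0.476), and it was 1.77 under quantile normalization (limma adjusted p = 0.00754) and -0.23 after the shift (limma adjusted p = 0.686).

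DUSP4, a nuclear phosphatase induced by ERK, was listed at 0 in both pools and at 2.46 in the vector library in the transcript used. Its other transcript had a vector value of 0.095 and was at 0 in the pools as well. DUSP4 was below the filter, and 40.3% of transcripts at 0 in both pools had a vector value at least as high as 2.46.

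Among the phosphatases of JNK and p38, DUSP16 (chr12:12626216-12715797) was the only one with coverage in the pools. Its coverage was 17.8 in pool 1 and 16.3 in pool 2, against 11.6 in the vector library. Both pools were above the vector value by more than the gap between them. The log2 fold was 0.52 (SE 0.28, 95% interval -0.57 to 1.61, limma adjusted p = 0.325), 1.14 under quantile normalization (limma adjusted p = 0.0450) and 0.048 after the shift (limma adjusted p = 0.877). DUSP8 (chr11:1575281-1593501) was listed at 0 in both pools and at 3.75 in the vector library, a value reached by 32.9% of transcripts at 0 in both pools. DUSP10 (chr1:221874766-221915431) was listed at 0 in all 3 libraries in each of its 3 transcripts, so its seed match GAATGTA could not be set against a value. Genes on the opposite strand overlap DUSP1, DUSP6, DUSP8 and DUSP16 in the annotation, and without strand their reads cannot be told apart from those of these members.

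By role, the nuclear inducible members summed to a coverage of 10.9 in pool 1, 7.64 in pool 2 and 25.8 in the vector library. The cytoplasmic ERK phosphatases summed to 226, 133 and 149.8 and the phosphatases of JNK and p38 to 17.8, 16.3 and 15.3. The nuclear sum was lower in both pools, and 20.7 of its 25.8 in the vector library was DUSP1. The vector values of the other sums lay between the pools for the cytoplasmic members and below both pools for those of JNK and p38. Without DUSP6 the members summed to 48.0 in pool 1, 38.4 in pool 2 and 72.5 in the vector library.

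Promoter windows around the gene start (RefSeq, GRCh38.p14) were matched for 8 of the 10 members, all but DUSP4 and DUSP5. The cyclic AMP response element TGACGTCA, the site of CREB and ATF factors, reads the same on both strands and occurred in 1.85% of 35116 promoters. It occurred in DUSP1, 125 bases before the gene start, and in DUSP8, at 118 and 74 bases before it, and in neither promoter of DUSP9. The sites are shown with 8 bases on each side and the element in capitals, as the matches found among the members. A match here is a description and not a site of binding.
DUSP1 chr5:172771305-172771328: agggcgggTGACGTCAccgccccg
DUSP8 chr11:1572374-1572397: ggctccgcTGACGTCAcctgcccc
DUSP8 chr11:1572330-1572353: gctgcaggTGACGTCAggggcttt

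The kinases that these phosphatases act on were examined as lists. Counts called in these and the later lists stand beside 1.0% of all tested genes that rose and 21.7% that fell. Of the genes that fell, 82.6% had both pools below the filter value. List medians stand beside a log2 fold of 0.070 over all tested genes and 0.22 over those above 0 in both pools. Of 14 MAP kinases 11 were tested, none rose and 2 fell, with a median log2 fold of 0.049. MAPK13, the p38 delta kinase, had a coverage of 0.645 in pool 1 and 0.804 in pool 2, against 23.3 in the vector library (log2 fold -3.82, limma adjusted p = 0.00168), and with both pools below the filter value it was tested only through its vector value. MAPK9, a JNK kinase, had 17.5 and 13.7 in the pools, against 102.8 in the vector library (log2 fold -2.65, limma adjusted p = 0.0375). MAPK9 has 5 transcripts in the table, and in the one with the highest coverage in the pools it had 28.7 and 23.9 in the pools, against 22.7 in the vector library (log2 fold 0.20, limma adjusted p = 0.644), so the call rests on the transcript. MAPK8, another JNK kinase, had 9.38 and 9.17 in the pools, against 5.46 in the vector library, and MAPK12, the p38 gamma kinase, had 64.4 and 45.6, against 34.5, and neither passed the test.

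Upstream, of 7 MAP kinase kinases 6 were tested and none rose or fell, with a median log2 fold of 0.16. MAP2K6, an activator of p38, had the largest fold shared by both pools in this list, with a coverage of 35.4 in pool 1 and 40.5 in pool 2, against 10.1 in the vector library (log2 fold 1.81, SE 0.25, limma adjusted p = 0.0576). MAP2K3, another activator of p38, stood lower, with 8.28 and 7.02 in the pools, against 26.2 in the vector library (limma adjusted p = 0.0903). In its other transcript the fold was smaller, with 9.2 and 7.3 in the pools, against 16.1 in the vector library (log2 fold -0.89, limma adjusted p = 0.233). Neither MAP2K6 nor MAP2K3 passed the test without scaling. In the transcripts used, both passed under quantile normalization (limma adjusted p = 0.0425 and 0.0259), beside 36.6% of tested genes that rose and 24.0% that fell. They also passed under the shift (limma adjusted p = 3.2e-10 and 4.5e-19), whose fit used a common variance. Of 17 genes of the RAS and RAF module 15 were tested, none rose and 1 fell (median 0.23). KSR1, a scaffold of RAF and ERK, fell to 1.66 and 1.13 in the pools, against 8.06 in the vector library (log2 fold -1.93, limma adjusted p = 0.0325, and 0.0521 under quantile normalization), and it too was tested only through its vector value. Of 15 MAP kinase kinase kinases of the JNK and p38 branches 12 were tested and none passed in either direction (median 0.018), and MAP3K12 had 63.1 and 47.6 in the pools, against 29.2 in the vector library.

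Genes transcribed downstream of ERK were set beside DUSP6, which is itself one. Of 16 such genes 14 were tested, none rose and 1 fell, with a median log2 fold of 0.17. FOSL1, an AP-1 subunit, fell to 0.126 in each pool, against 11.6 in the vector library (log2 fold -3.48, limma adjusted p = 3.2e-06), where the identical pool values give the test no spread of its own and the gene passed the filter only through its vector value. ETV1, an ETS factor, had 13.6 and 9.80 in the pools, against 32.0 in the vector library, in the transcript used. Its 7 transcripts ranged from 11.8 to 13.6 in pool 1 and from 8.85 to 9.80 in pool 2. In the vector library they ranged from 7.62 to 32.0, so the direction of ETV1 depends on the transcript. IER3, an early response gene, had 5.90 and 2.01 in the pools, against 1.55 in the vector library. Neither ETV1 nor IER3 passed the test. The DUSP6 fold of 0.40 lay on the higher side of the median of these genes.

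Other phosphatases were examined last. DUSP5, DUSP6, PTPN11 and PTPN22 are phosphatases reported as miR-181a targets in T cells, and none of the 2 that were tested fell. PTPN11, the phosphatase SHP2, had a coverage of 66.6 in pool 1 and 54.8 in pool 2, against 42.3 in the vector library (log2 fold 0.50, SE 0.24, limma adjusted p = 0.288), and its annotated 3′ UTR held no match to bases 2 to 8. PTPN22, a lymphocyte phosphatase whose 3′ UTR held 1 such match, was at 0 in the pools and 0.209 in the vector library and was not tested. Of 8 further phosphatases that act on MAP kinases 6 were tested, none rose and 1 fell (median -0.29). That gene was PTPN7, a lymphocyte phosphatase, at 0 in both pools and 335 in the vector library in one transcript and at 0 throughout in the other, so that it passed the filter only through its vector value. PPM1D, a serine phosphatase, had 36.9 and 30.3 in the pools, against 54.2 in the vector library, short of the threshold (limma adjusted p = 0.225).

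**Figure D5:**
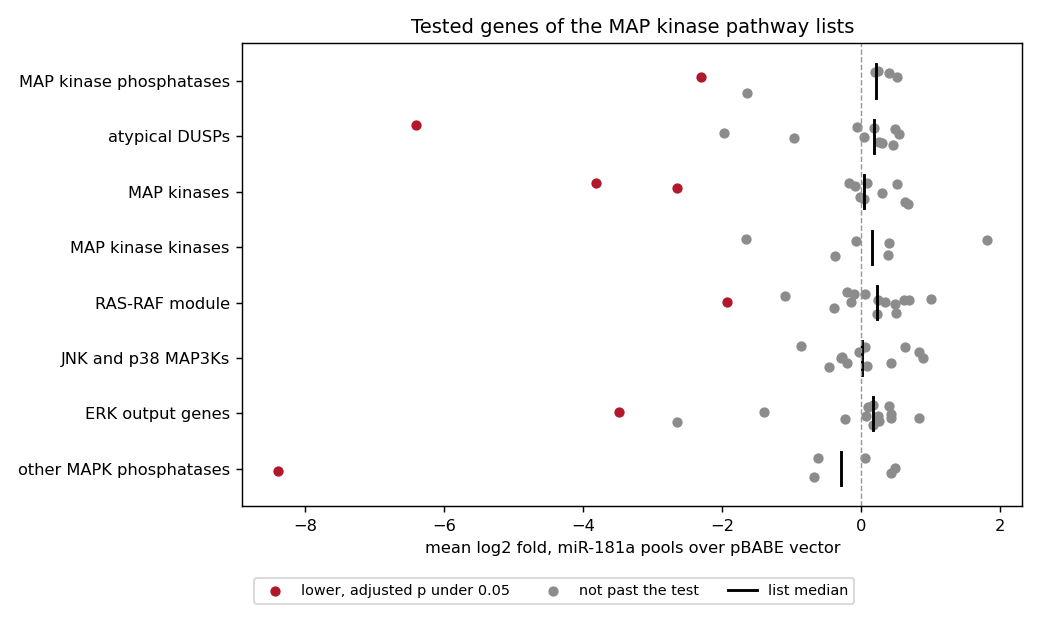
Mean log2 fold of the miR-181a pools over the pBABE vector library for tested genes of each MAP kinase pathway list, without scaling, with black bars at the list medians. The medians lie between -0.29 and 0.23, and the red points are genes that fell by limma, among them DUSP9.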

How the data were processed

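The authors mapped reads of poly-A RNA to hg19 and kept the median of a density profile in 50 bp windows as the coverage of each RefSeq transcript, per the labels' protocols. Aligner and annotation release: not given in the sources used here. Values of the deposited coverage signal are linear. Quantile normalization is named in the protocols, yet the 3 columns have different quantiles and no scaling was assumed. Rows with a blank vector value (308 of 29156) were left out, and each gene is represented by its row of highest mean coverage.

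Values were taken as log2(coverage + 1) and fitted with limma 3.58.1 (R 4.3.3), eBayes with a variance trend, over 12552 genes, with 1 residual degree of freedom, between the pools. The lone vector library is therefore assumed to vary as the pools do. Seed matches and figures were made in Python 3.11.15. All 10 members are named. From each other list, genes past the test and up to 4 with the largest shared fold could be named; the cell type markers and PTPN22 are named outside this rule, after their values were seen. The members and lists were chosen with earlier results of these data known. Alternatives covered the filter, pseudocount, scaling, choice of row, variance model, size threshold and each pool left out.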

Additional observations from a re-analysis of the deposited data

How the results depend on the processing

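DUSP9 fell in every setting in which it was tested, and a filter at the median left it out. With no filter 3 of 9 tested members fell (DUSP4, DUSP8 and DUSP9), beside 33.6% of genes. Of these, DUSP4 and DUSP8 were at 0 in both pools and owe their calls to the vector value. With quantile normalization or the shift 2 of 6 fell. With quantile normalization 3 members rose, 2 members were higher by the size rule, and the median log2 fold of the members was 0.63, against -0.25 after the shift and -0.0098 to 0.41 without 1 of the pools. By the size rule 4 members were lower with no filter and 1 with a filter at the median, a pseudocount of 10 or a threshold of 2 log2 units. After the shift DUSP2 was at -0.23, DUSP6 at -0.069 and DUSP7 at -0.28. DUSP5 was at -0.13 with a pseudocount of 0.1, 1.10 with quantile normalization and -0.52 after the shift. Over all genes, 1476 fell with a filter at the median, 5626 with no filter and 5784 after the shift. The fits with the median filter and the shift used a common variance, with 8368 and 12552 degrees of freedom against 2.22, so their counts differ by more than the named choice. The genes that rose numbered 402, 278 and 710 in these settings, 216 over all rows and 4598 with quantile normalization. By the size rule 635 genes were higher over all rows, 506 with a pseudocount of 0.1, 63 with 10, 3262 with quantile normalization, 61 after the shift and 15 at 2 log2 units, and 356 to 1305 without 1 of the pools. By the same rule 1428 were lower with a filter at the median, 5718 with no filter and 2282 with a pseudocount of 10. An 8-mer was found in 1 member, and in 1 member every annotated transcript held the match to bases 2 to 8. The cause of these shifts was not tested. With 1 pool left out there is no residual spread, so those values have no test. No paired analysis was possible because the vector group has 1 library. With 1 vector library and no counts, neither its own spread nor counting error could be measured.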

Other observations

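The atypical dual-specificity phosphatases, which share the catalytic fold but lack the MAP kinase binding domain, were compared with the members. Of 19 such genes 11 were tested, none rose and 1 fell, with a median log2 fold of 0.18. The gene that fell was DUSP28, at 4.17 in pool 1 and 2.78 in pool 2, against 374 in the vector library (log2 fold -6.40, limma adjusted p = 0.0118). DUSP18 had 6.70 and 4.14 in the pools, against 23.6 in the vector library, and was short of the threshold (limma adjusted p = 0.115), as was STYXL1, with 20.7 and 16.3 in the pools, against 12.2 in the vector library (limma adjusted p = 0.356).

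The pentamer ATTTA, the core of AU-rich elements that mark short-lived messenger RNAs, was counted on the sense strand of the same 3′ UTRs and occurred in 70.6% of 16233 genes. DUSP1 held 4 and DUSP2 held 3, beside a median of 1 in genes of similar 3′ UTR length for each. DUSP10 also held 3, beside a median of 1. DUSP6 held 1, beside a median of 4, and DUSP5 held 0, beside a median of 2. DUSP9, which fell, held 1, beside a median of 1. The remaining members were at or below their medians. DUSP4 held 6, beside a median of 9, DUSP7 held 2, beside 5, DUSP8 held 4, beside 5, and DUSP16 held 8, beside 8.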
